A study of Mus musculus with 2 samples.

Results

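The mRNA levels of 10 liver enzyme genes for transamination and the breakdown of amino acids were compared between normal and diabetic mice. The genes were taken by name from a fixed list, which was chosen with earlier results of these data known. All 10 were among the 8551 genes of the deposited table. Gpt, Gpt2, Got1, Got2, Oat and Agxt encode aminotransferases, and Sds and Hal encode enzymes that remove ammonia directly. Prodh and Aass encode enzymes that open the routes of proline and lysine. Normal livers were from male wild type mice on a C57BL/6 background, and diabetic livers were from male db/db mice with the same labelled background, which lack a working leptin receptor in every tissue and become obese and hyperglycaemic. All mice were 9 weeks old, ate chow freely, and were killed about 3 h into the light phase. They came from 2 suppliers, and the methods do not say which supplier provided which group or whether the RNA of several mice was pooled. Each group had 1 library, so no difference given here has a replicate check, and genotype cannot be told apart from supplier or library preparation. Lepr, the gene that carries the db mutation, was not analysed here, so the genotype labels were not checked against it.

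An aminotransferase moves the amino group of an amino acid to a keto acid, usually α-ketoglutarate, which becomes glutamate. The carbon skeletons left behind, such as pyruvate and oxaloacetate, can be used by the liver to make glucose, while the nitrogen is passed on to the urea cycle. In the liver these enzymes are known to be raised by fasting, protein feeding, glucagon and glucocorticoids, and the alanine and aspartate aminotransferases are the enzymes measured in blood as signs of liver injury.

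The levels were measured by digital gene expression, in which cDNA is cut with DpnII at the sequence GATC and a short tag next to the cut is sequenced and counted. In the usual form of the method the cDNA is held by its poly(A) end, so that the last GATC gives the tag. The labels name random hexamer primers for the cDNA of these libraries, and tags from other GATC sites, of which each transcript had 2 to 14 in all, may then also have been counted. The tag expected from the last site is shown because it is the piece of the mRNA whose count would stand for the gene. It was read from the longest protein-coding transcript of each gene in GENCODE M21 (build GRCm38), as the 20 bases that begin at the last GATC before the poly(A) end, written 5′ to 3′ with the DpnII site in capitals. The deposited table holds no tags or coordinates, and the length of the sequenced tags is not given in the sources used here.

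Gpt: GATCcgctgcaacccggtgc
Gpt2: GATCacggtgcctggttaca
Got1: GATCtccccgcacggttgtg
Got2: GATCagaaggagatactctg
Oat: GATCactgggtgtgtttcag
Sds: GATCaccagtgtcgccaagg
Agxt: GATCcggaaatccggctacc
Aass: GATCatagtttgttaattta
Hal: GATCcaatcagaaagattaa
Prodh: GATCggttatgaggacccca

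In GRCm38 the tags of Gpt2 (chr8:85526419-85526438, plus strand), Got1 (chr19:43499953-43499972, minus strand), Got2 (chr8:95864258-95864277, minus strand), Oat (chr7:132557520-132557539, minus strand), Aass (chr6:23072726-23072745, minus strand) and Hal (chr10:93518981-93519000, plus strand) lay in the 3′ UTR, each within the last exon. Those of Gpt (chr15:76699070-76699089, plus strand, exon 9 of 11) and Prodh (chr16:18076282-18076301, minus strand, exon 11 of 14) were coding. The tags of Sds (chr5:120481672-120483074, plus strand, exons 7 and 8 of 9) and Agxt (chr1:93144145-93144524, plus strand, exons 9 and 10 of 11) were coding and crossed an exon junction, so the spans given include an intron. None of these tags occurred in a transcript of any other gene, so by these sequences Gpt and Gpt2, and likewise Got1 and Got2, can be counted apart. The tag was shared by 3 of 4 protein-coding transcripts of Gpt, 2 of 3 of Sds, 4 of 6 of Prodh and 1 of 2 of Oat and of Aass, and the remaining transcripts of these genes would give another tag or none.

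The deposited values are tags of a gene scaled to the clean tags of its library, in a unit the authors call TPM. The values rise in steps, each worth 1 read, of 0.0973 TPM for normal and 0.0740 TPM for diabetic liver, from which depths of 10278531 and 13508232 clean tags were computed. Reads of the 10 genes numbered 594 to 4457 for normal and 1918 to 24111 for diabetic liver. The values are not scaled by length, and with random primers a transcript may give more than 1 tag, so an order of levels between genes is an order of tag counts. Each fold change divides the diabetic by the normal level, and the 95% intervals (exact Poisson for a level, Clopper-Pearson for a ratio) cover counting error only and not the variation between mice. The deposited values place the median listed gene at a log2 ratio of 0.25, and 4 other scalings between the libraries, which lower every log2 ratio by 0.26 to 0.31, are given, mostly by the example of TMM, beside the results they move across 1.5-fold or turn in direction. Among markers of other liver cells, 4 of 8 Kupffer cell and macrophage genes in the table were at least 1.5-fold lower and 1 of 8 higher. Of all listed genes 15.3% were lower and 34.4% higher. After TMM scaling 5 of the 8 were lower and 0 higher, beside 23.8% and 23.9% of all listed genes. The 8 together were at 327 TPM in normal and 194 TPM in diabetic liver. Clec4f, which defines Kupffer cells, was at only 1.46 and 1.11 TPM, and the whole list held 12 genes. Of 10 sinusoidal endothelial markers 2 were at least 1.5-fold lower and 2 higher, with a median log2 ratio of -0.17. Of 8 stellate cell markers 1 was lower and 2 higher, with a median of 0.51. Of 3 cholangiocyte markers 0 were lower and 1 was higher, with a median of 0.14. None of the 8 measured hepatocyte markers was at least 1.5-fold higher and 4 were lower, also after TMM scaling. Their median log2 ratio was -0.50 as deposited. The sum of the hepatocyte markers was 30819 TPM in normal and 17146 TPM in diabetic liver. Much of that difference lay in Apoa1 alone, at 14668 TPM in normal and 2875 TPM in diabetic liver. Alb, which encodes albumin and had the highest log2 ratio of these markers, was at 6801 and 6912 TPM. The part of the cell make-up in the differences below was not tested, and in whole liver fewer cells of a type and less RNA per cell cannot be told apart.

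Of the 10 genes, 8 were at least 1.5-fold higher in diabetic mouse liver and 0 were at least 1.5-fold lower. The exceptions were Hal and Agxt. The same 8 also had a false discovery rate (FDR) under 0.001 by an exact binomial test of their reads (two-sided, Benjamini-Hochberg adjustment over the 8551 genes). Such a test sets 1 library against the other and says nothing of the spread between mice. With an assumed variation between samples of 20%, an alternative chosen after seeing the data, 3 of the 8 calls were left, and with 40% there were 0. Of all listed genes, 34.4% were higher and 15.3% lower by the fold alone, and with the FDR in addition 22.9% were higher and 8.19% lower. The 10 genes are abundant, with means of 145 to 1061 TPM, and among the 652 genes whose mean reached 100 TPM, a minimum set after the levels were seen, 41.9% were at least 1.5-fold higher. The median log2 ratio of the 10 genes was 1.42, against 0.25 for all listed genes and 0.41 for the 652 abundant genes. When the libraries were scaled by a trimmed mean of M values (TMM), the number of the 10 genes past 1.5-fold was again 8 and their median was 1.17, while of all genes 23.9% were higher and 23.8% lower.

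**Figure D1:**
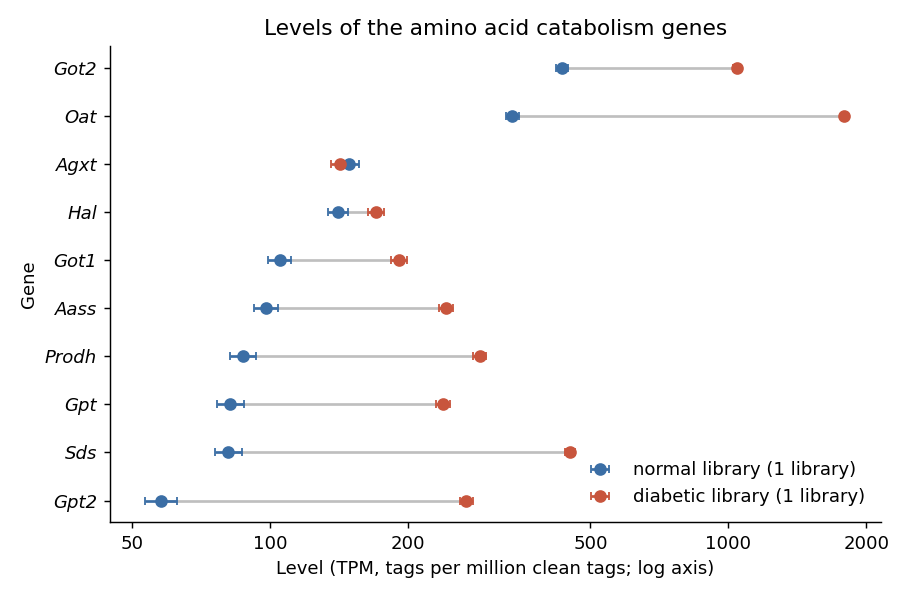
Level of each gene in the normal (blue) and diabetic (red) liver library, in TPM on a log axis. Points are the single library of each group, error bars are 95% exact Poisson intervals and the grey line joins the libraries. At the deposited scaling the intervals of the 2 libraries overlap for Agxt alone, while Oat moves from 338 to 1785 TPM.

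The alanine aminotransferases convert alanine, a main carrier of carbon and nitrogen from muscle to liver, to pyruvate. Gpt (Entrez 76282), the cytosolic enzyme measured in blood as ALT, was at 81.7 TPM (95% interval, 76.3 to 87.4) in normal and 238 TPM (230.0 to 247) in diabetic mouse liver. It was thus 2.91-fold higher, with a log2 ratio of 1.54 (95% interval, 1.43 to 1.65). Gpt2 (Entrez 108682), the mitochondrial enzyme, was at 57.8 TPM (53.2 to 62.6) in normal and 268 TPM (259 to 277) in diabetic mouse liver. Its increase of 4.63-fold (log2 ratio 2.21, 95% interval 2.09 to 2.34) was the larger of the pair. Gpt2 had 0.707 tags for each tag of Gpt in the normal library (95% interval, 0.636 to 0.786) and 1.12 in the diabetic library (1.07 to 1.18), so that the order of the paralogs differed between the libraries. The log2 ratio of Gpt2 exceeded that of Gpt by 0.67 (95% interval, 0.50 to 0.83), a difference that no scaling between the libraries can alter.

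The aspartate aminotransferases exchange aspartate and oxaloacetate and form part of the malate-aspartate shuttle, which carries reducing equivalents between cytosol and mitochondria. Got1 (Entrez 14718), the cytosolic enzyme, was at 105 TPM (98.6 to 111) in normal and 191 TPM (184 to 198) in diabetic mouse liver. Its 1.82-fold increase (log2 ratio 0.87, 95% interval 0.76 to 0.97) was the smallest of the 8 genes that were higher, and under median-ratio scaling its log2 ratio of 0.56 lay within 1.5-fold. Got2 (Entrez 14719), the mitochondrial enzyme, was the most abundant of the 10 genes in normal liver with 434 TPM (421 to 447), and reached 1042 TPM (1025 to 1060) in diabetic liver. It was 2.40-fold higher, with a log2 ratio of 1.27 (95% interval, 1.22 to 1.31). Got2 was at 4.14 times the level of Got1 in the normal library (95% interval, 3.87 to 4.43) and at 5.46 times in the diabetic library (5.23 to 5.69). As for alanine, the mitochondrial gene rose more than the cytosolic one, here by 0.40 on the log2 scale (95% interval, 0.29 to 0.51).

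Oat (Entrez 18242) encodes ornithine aminotransferase of the mitochondrial matrix, which turns ornithine into glutamate semialdehyde and so links the urea cycle intermediate to glutamate and proline. It was at 338 TPM (326 to 349) in normal and 1785 TPM (1762 to 1808) in diabetic mouse liver, with 3470 and 24111 reads. The increase of 5.29-fold (log2 ratio 2.40, 95% interval 2.35 to 2.45) made Oat the most abundant of the 10 genes in the diabetic library, and its gain of 1447 TPM was the largest of the list. Only 2.42% of all listed genes had a higher log2 ratio.

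Agxt (Entrez 11611) encodes alanine-glyoxylate aminotransferase, which also uses serine and removes glyoxylate before it can form oxalate. It was at 148 TPM (141 to 156) in normal and 142 TPM (136 to 148) in diabetic mouse liver. As deposited, its difference did not exceed counting error, with a log2 ratio of -0.06 (95% interval, -0.16 to 0.04). The 4 other scalings gave -0.37 to -0.32, at which Agxt was lower beyond counting error but within 1.5-fold. Agxt had rank 3 among the 10 genes in the normal library and rank 10 in the diabetic library.

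Sds (Entrez 231691) encodes serine dehydratase, which converts serine to pyruvate and releases ammonia. Sds was at 81.0 TPM (75.5 to 86.6) in normal and 451 TPM (440.1 to 463) in diabetic mouse liver. It had the highest fold change of the list, 5.58-fold, with a log2 ratio of 2.48 (95% interval, 2.37 to 2.59), and 2.29% of all listed genes had a higher one. Its log2 ratio and that of Oat differed by 0.08 (95% interval, -0.04 to 0.19), within counting error. Hal (Entrez 15109) encodes histidine ammonia-lyase, which opens the breakdown of histidine by forming urocanate. Hal was at 141 TPM (134 to 148) in normal and 170 TPM (163 to 177) in diabetic mouse liver, 1.21-fold higher with a log2 ratio of 0.27 (95% interval, 0.18 to 0.37). This lay beside the median of all listed genes, and under the 4 other scalings it was between -0.03 and 0.02, which is within counting error, so the direction of Hal depended on the scaling. The log2 ratio of Sds exceeded that of Hal by 2.21 (95% interval, 2.06 to 2.35), although both enzymes release ammonia without transamination.

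Prodh (Entrez 19125) encodes proline dehydrogenase of the mitochondrial inner membrane, which starts the conversion of proline to glutamate and meets the route of Oat at glutamate semialdehyde. It was at 87.3 TPM (81.7 to 93.2) in normal and 286 TPM (277 to 295) in diabetic mouse liver, 3.28-fold higher with a log2 ratio of 1.71 (95% interval, 1.61 to 1.82). Aass (Entrez 30956) encodes aminoadipate-semialdehyde synthase, the enzyme of the opening steps of lysine breakdown. Lysine is ketogenic, so Aass is the member of the list that does not feed glucose synthesis. It was at 97.9 TPM (91.9 to 104) in normal and 242 TPM (234 to 250.2) in diabetic mouse liver, 2.47-fold higher with a log2 ratio of 1.30 (95% interval, 1.20 to 1.41). Aass and Got2 had log2 ratios that differed by 0.04 (95% interval, -0.07 to 0.15), again within counting error.

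**Figure D2:**
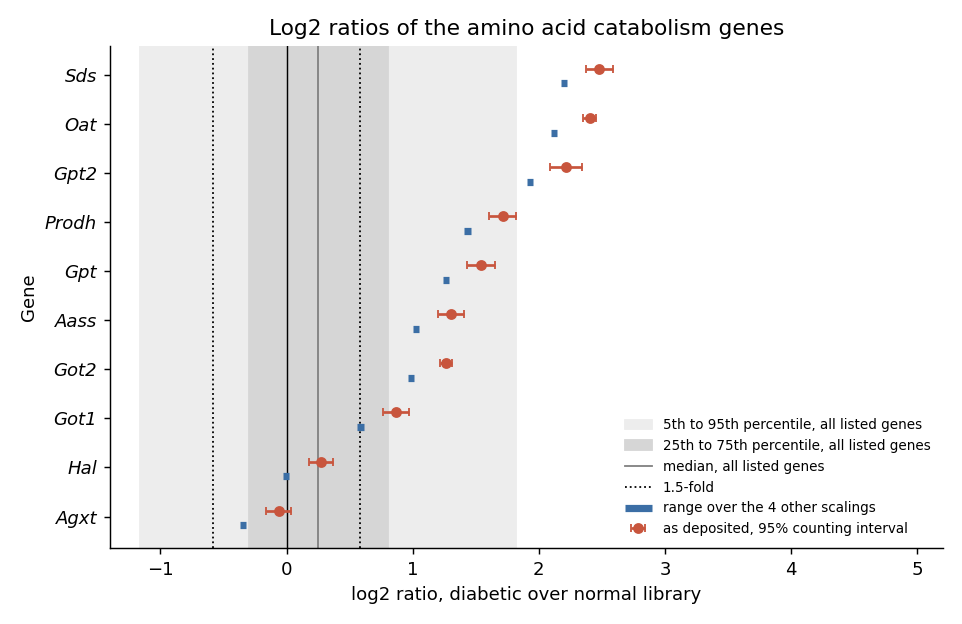
Log2 ratio of each gene, diabetic over normal library, as deposited with its 95% Clopper-Pearson interval (red), and the range over the 4 other scalings (blue bar). Grey bands are the percentiles of all 8551 listed genes, and dotted lines mark 1.5-fold. Sds, Oat and Gpt2 lie above the 95th percentile of 1.82, and Hal and Agxt lie within the middle band.

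In normal liver the order of levels in TPM was Got2, Oat, Agxt, Hal, Got1, Aass, Prodh, Gpt, Sds and Gpt2. Counting error did not separate Agxt from Hal, Got1 from Aass, Prodh from Gpt, or Gpt from Sds. In diabetic liver the order was Oat, Got2, Sds, Prodh, Gpt2, Aass, Gpt, Got1, Hal and Agxt, and Aass and Gpt were the only neighbours not separated. Together the 10 genes were at 1571 TPM in normal and 4815 TPM in diabetic liver, 3.07-fold higher, while all listed genes together were 1.20-fold higher. As a share of the listed reads this was 0.424% (95% Wilson interval, 0.417% to 0.430%) and 1.09% (1.08% to 1.09%). Oat made up 21.5% of the sum in normal and 37.1% in diabetic mouse liver. Agxt, Hal and Got1 took smaller shares in the diabetic library, with 9.44% and 2.95% for Agxt, 8.96% and 3.53% for Hal, and 6.67% and 3.96% for Got1.

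**Figure D3:**
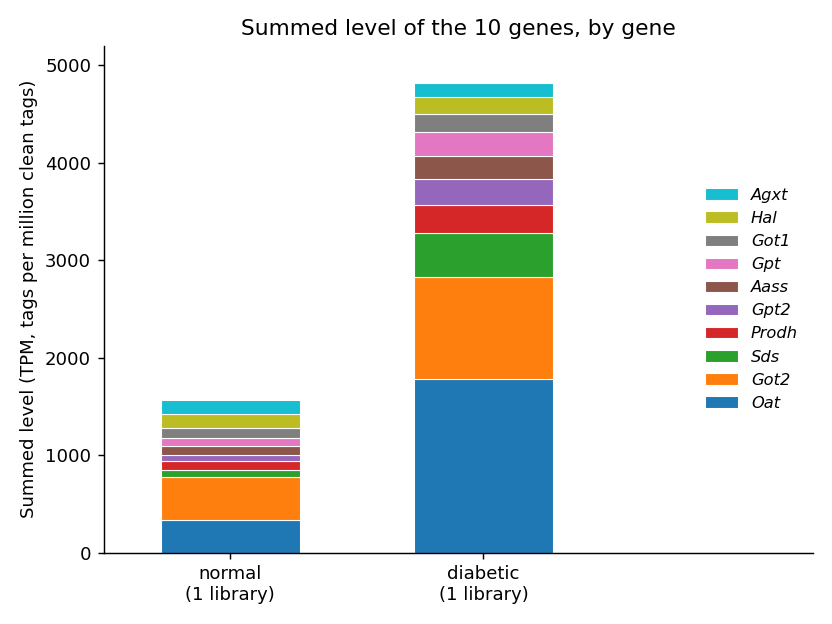
Summed level of the 10 genes in each library, in TPM, with the height of each coloured part the level of 1 gene and 1 library per bar. The sum goes from 1571 to 4815 TPM, and the blue part at the base, Oat, grows from 338 to 1785 TPM.

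Enzymes and carriers of the same routes or related to them, none among the 10 genes, were described from 7 lists written for this comparison. These lists named 81 genes, of which 54 were in the table. At least 1.5-fold higher were 25 of the 54 and lower were 4, beside 34.4% and 15.3% of all listed genes and 41.9% higher among the abundant genes. Their median log2 ratio of 0.49 lay between that of all listed genes and that of the 10 genes. With the FDR under 0.001 in addition, 24 were called higher and 2 lower, beside 22.9% and 8.19% of all listed genes. After TMM scaling 20 were at least 1.5-fold higher and 6 lower, beside 23.9% and 23.8% of all listed genes. These values are descriptions without a test of the lists.

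The list of other aminotransferases and their relatives had 11 genes in the table. At least 1.5-fold higher were 5 of the 11 and 1 was lower, with a median log2 ratio of 0.47. Agxt2l1 and Agxt2l2, named for their likeness to Agxt2, encode phospho-lyases rather than aminotransferases. Agxt2l1 was among the higher genes at a log2 ratio of 2.52, and Agxt2l2, at 0.47, was itself the median. Both were chosen here after their values were seen. Tat, the tyrosine aminotransferase and the most abundant gene of the list, was at 1763 TPM in normal and 1533 TPM in diabetic mouse liver. Its log2 ratio was -0.20 (95% interval, -0.23 to -0.17). Aadat, which transaminates aminoadipate in the lysine route downstream of Aass, was at 133 and 131 TPM, a log2 ratio of -0.02 (95% interval, -0.13 to 0.08). Ccbl2, a kynurenine aminotransferase, was at 117 and 136 TPM, with a log2 ratio of 0.22 that turned to -0.04 after TMM scaling. Agxt2, a mitochondrial aminotransferase that can also use alanine and glyoxylate, was chosen here after its values were seen and was 3.73-fold higher, from 33.8 to 126 TPM (log2 ratio 1.90, 95% interval 1.73 to 2.07). The lower gene was Ccbl1, chosen in the same way, at 129 TPM in normal and 84.6 TPM in diabetic liver (log2 ratio -0.61, 95% interval -0.73 to -0.50). Aminotransferases as a class therefore held a lower gene and genes with little difference, such as Tat, Aadat and Agxt. They also held genes that were over 4-fold higher, such as Oat and Gpt2.

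The partners of Oat and Prodh at glutamate semialdehyde included Aldh4a1, the dehydrogenase that completes proline breakdown to glutamate. Aldh4a1 was at 192 TPM in normal and 341 TPM in diabetic mouse liver, 1.78-fold higher (log2 ratio 0.83, 95% interval 0.75 to 0.91), and under TMM scaling its log2 ratio of 0.57 lay within 1.5-fold. Prodh2, which opens hydroxyproline breakdown, went from 32.3 to 60.6 TPM with a log2 ratio of 0.91 (95% interval, 0.72 to 1.10). Slc25a15, the ornithine carrier that brings the substrate of Oat into mitochondria, was at 66.9 and 93.6 TPM and within 1.5-fold. On the glyoxylate side next to Agxt, Hao1, which makes glyoxylate from glycolate, was at 78.6 and 125 TPM (log2 ratio 0.67, 95% interval 0.55 to 0.79), and within 1.5-fold at 0.41 after TMM scaling. Grhpr, which reduces glyoxylate, was at 36.0 and 26.0 TPM (log2 ratio -0.47, 95% interval -0.69 to -0.26), and under the 4 other scalings it passed 1.5-fold lower, at -0.73 by TMM. In this list 4 of 9 genes were at least 1.5-fold higher and 2 were lower as deposited, against 2 higher and 3 lower after TMM scaling.

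All 4 genes of the histidine list in the table were within 1.5-fold, as Hal was. Uroc1, the urocanate hydratase that acts directly after Hal, was at 82.7 TPM in normal and 114 TPM in diabetic mouse liver, a log2 ratio of 0.46 (95% interval, 0.34 to 0.58). Ftcd, which ends the route by passing the formimino group to tetrahydrofolate, was at 155 and 201 TPM, a log2 ratio of 0.38 (95% interval, 0.29 to 0.47). Amdhd1 and Cndp2 had lower levels, 10.99 and 11.7 TPM in the normal library, and log2 ratios of 0.27 and 0.36. Cndp2 encodes a dipeptidase, which is not a step of this route.

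Of the 9 measured genes of the lysine list, 6 were at least 1.5-fold higher and 0 were lower, with a median log2 ratio of 0.98. Not all belong to the route of Aass alone. Tmlhe, Bbox1 and Aldh9a1 encode enzymes of carnitine synthesis. Dlst, whose log2 ratio was the median, encodes a subunit shared with the citric acid cycle. Aldh7a1, the dehydrogenase that acts after Aass, was at 170 TPM in normal and 377 TPM in diabetic mouse liver, 2.22-fold higher (log2 ratio 1.15, 95% interval 1.07 to 1.23). Gcdh, the glutaryl-CoA dehydrogenase further along the route, was at 218 and 353 TPM, 1.62-fold higher (log2 ratio 0.70), but within 1.5-fold at 0.44 after TMM scaling. After that scaling 5 of the 9 were higher and 1 was lower, Bbox1 at -0.71, which was named after its value was seen.

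For serine and glycine, 3 of 6 genes, and 2 after TMM scaling, were at least 1.5-fold higher and 0 were lower, while Sdsl, the relative of Sds, was not analysed here. Dmgdh, which oxidises dimethylglycine, rose from 365 to 878 TPM, 2.40-fold. Gldc, of the glycine cleavage system, was at 133 and 232 TPM, with a log2 ratio of 0.80 that TMM scaling brought within 1.5-fold, at 0.55. Shmt1, which interconverts serine and glycine, was at 121 and 154 TPM, within 1.5-fold.

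Glud1, the glutamate dehydrogenase that takes ammonia from the glutamate made by transamination, was not analysed here. Gls2, the liver glutaminase, was at 299 TPM in normal and 656 TPM in diabetic mouse liver, 2.20-fold higher (log2 ratio 1.14, 95% interval 1.08 to 1.19). Slc25a22, a mitochondrial glutamate carrier, was 1.86-fold higher, from 38.2 to 71.3 TPM. Nit2, an amidase of the glutamine route, was at 50.9 and 44.9 TPM, within 1.5-fold. Of the 7 measured genes of glutamate, glutamine, aspartate and asparagine 3 were higher by that margin and 1 was lower, also after TMM scaling.

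On the way from the products of Gpt and Got to glucose, Pck1, the cytosolic phosphoenolpyruvate carboxykinase, rose from 668 to 2047 TPM. Pcx, the pyruvate carboxylase that makes oxaloacetate from pyruvate, was at 38.8 and 35.0 TPM, a log2 ratio of -0.15 (95% interval, -0.34 to 0.05). Mdh2, the mitochondrial malate dehydrogenase that works with Got2 in the shuttle, was 2.61-fold higher, from 74.7 to 195 TPM (log2 ratio 1.39). Mdh1, its cytosolic counterpart, had only 84 and 134 reads and a log2 ratio of 0.28 (95% interval, -0.12 to 0.69). Brp44, a subunit of the mitochondrial pyruvate carrier, was 1.63-fold higher, from 321 to 521 TPM, and within 1.5-fold at 0.45 after TMM scaling. In this list 4 of 8 genes, and 3 after TMM scaling, were at least 1.5-fold higher and 0 were lower.

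**Figure D4:**
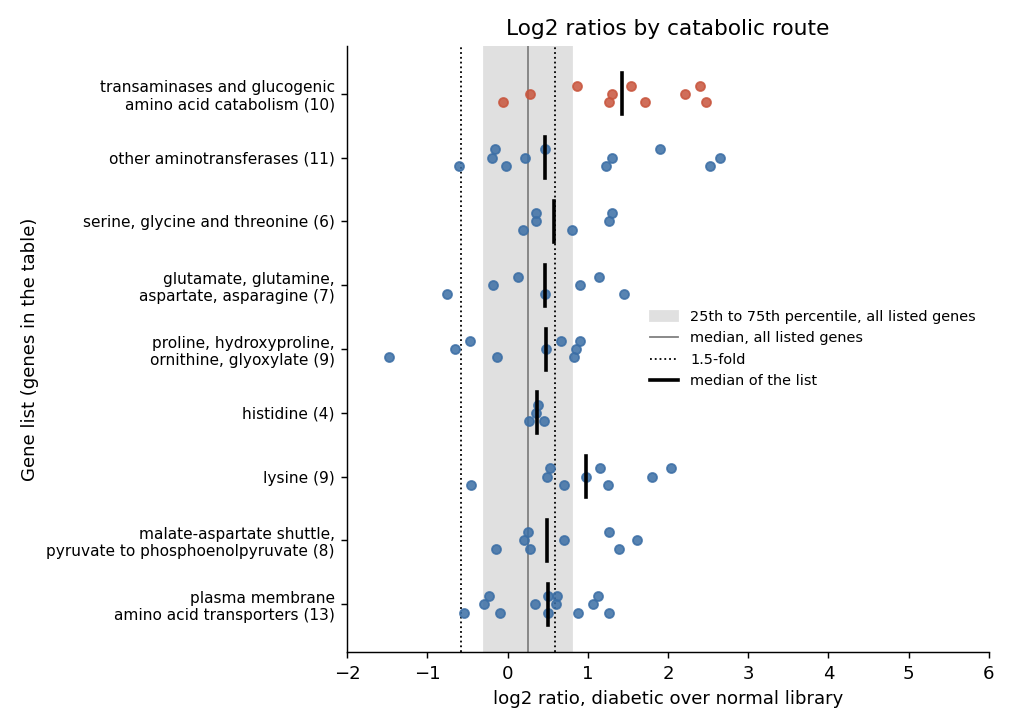
Log2 ratio of each gene, diabetic over normal library, for the 10 genes (red) and for the genes of the other lists, amino acid transporters included (blue). List medians are black bars, and the number of genes in the table is in brackets. The 10 genes have a median of 1.42, the lysine list 0.98 and the histidine list 0.37, and the grey band is the middle of all listed genes.

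Promoters from 250 bases before to 50 after the transcription start were read from RefSeq sequences of GRCm38.p6, where 8 of the 10 genes had an entry. Gpt and Sds had none. The promoters are described since the genes with an entry range from Agxt, nearly equal as deposited, to Oat at over 5-fold. The core of the cyclic AMP response element, TGACG on either strand, was found in 2 of the 8 promoters, Oat and Aass, and in 20.8% of 32851 mouse promoters. The core of the glucocorticoid response element, TGTTCT on either strand, was found in 1 of the 8, Agxt, and in 19.0% of all. The full palindrome TGACGTCA, which contains the former core, was in 0 of the 8 and in 1.79% of all. Oat had the largest gain in level, and Agxt had the log2 ratio nearest to 0 as deposited. Under the 4 other scalings Hal was nearest, at -0.03 to 0.02, and Agxt was at -0.37 to -0.32. The promoters of Oat and Agxt are shown in full, 5′ to 3′ on the strand of the gene, with these cores in capitals.

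Oat, chr7:132576349-132576648, minus strand: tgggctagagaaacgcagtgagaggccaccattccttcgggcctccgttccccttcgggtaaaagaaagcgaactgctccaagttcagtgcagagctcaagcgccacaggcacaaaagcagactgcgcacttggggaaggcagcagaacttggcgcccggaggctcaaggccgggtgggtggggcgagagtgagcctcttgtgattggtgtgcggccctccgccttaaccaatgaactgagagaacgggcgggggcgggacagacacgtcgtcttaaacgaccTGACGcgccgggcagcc
Agxt, chr1:93134990-93135289, plus strand: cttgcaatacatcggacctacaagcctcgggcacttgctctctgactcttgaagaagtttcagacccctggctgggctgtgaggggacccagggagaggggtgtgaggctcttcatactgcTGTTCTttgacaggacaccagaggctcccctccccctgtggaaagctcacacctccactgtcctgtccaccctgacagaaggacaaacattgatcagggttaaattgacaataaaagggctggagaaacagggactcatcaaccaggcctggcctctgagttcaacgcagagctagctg

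The promoter of Oat had 22 CpG dinucleotides and 61.7% G and C, while that of Agxt had 3 and 54.3%, beside medians of 7 and 52.7% over all promoters. Among the other promoters Got2 had 24, Gpt2 19, Got1 18, Prodh 17, Hal 7 and Aass 5 CpG dinucleotides.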

How the data were processed

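Liver poly(A) RNA of normal and diabetic mice was measured with 1 digital gene expression library per group. The authors trimmed adaptors, matched the tags that passed a quality screen to RefSeq and deposited RPM values, which they call TPM, rounded to 2 decimals with 0.01 in place of 0. Genes with a mean under 1 TPM are left out of the deposited table, whose smallest mean is 1.005. The processing notes of the submitters name the build mm 9, and the aligner is not given in the sources used here. The number of other columns of values per sample was 0.

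The step between values gave whole read numbers, and 8513 of 8513 values of the normal and 8536 of 8537 of the diabetic library above 0.01 came out whole within 0.0051 TPM. Fold changes use the deposited values. A gene was called at a fold of at least 1.5 and an FDR under 0.001, from an exact binomial test per gene with Benjamini-Hochberg adjustment over 8551 genes. This test compares 2 libraries, not conditions. TMM scaling trimmed 30% of log ratios and 5% of abundances, and median-ratio scaling used genes of at least 10 TPM. Intervals cover counting error only, since each group had 1 library. Tags carry no molecular identifiers, so copies made by amplification could not be told apart from separate molecules. On simulated reads of 8551 genes in which 200 were changed 3-fold, the test called 158 of them, including 89 of 89 at 10 TPM or more, and 0 unchanged genes. These reads were drawn with counting error alone, so the simulation says nothing of false calls from variation between mice.

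The 10 genes and all lists were chosen with earlier results of these data known. Named genes are the 10, the 3 most abundant of each list, and direct partners. Some single genes of the lists are not reported here. Computation was in Python 3.11.15 with pandas 2.3.3, scipy 1.17.1 and numpy 2.4.6, and plots were made with matplotlib 3.10.9. Alternatives were the 4 scalings, a 2-fold threshold, a filter at a mean of 5 TPM, added constants of 0.1 or 1 TPM and, chosen after seeing the data, an assumed variation between samples.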

Additional observations from a re-analysis of the deposited data

How the results depend on the processing

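Of the 10 genes, 8 were at least 1.5-fold higher under every scaling, filter and added constant except median-ratio scaling, which left 7, and 0 were lower. The median log2 ratio of the 10 genes was 1.1645 with the libraries set to an equal total over the listed genes, 1.1689 under TMM, 1.1182 under median-ratio scaling and 1.1557 under upper-quartile scaling. In that order, 2044, 2034, 2189 and 2076 of all genes were at least 1.5-fold lower, 1249, 1262, 1135 and 1220 were called higher and 1165, 1158, 1262 and 1183 called lower, and by median-ratio scaling 1874 were at least 1.5-fold higher. Of the genes past 1.5-fold, 69.2% were higher as deposited and 46.1% to 50.2% under these scalings. With a mean of at least 5 TPM, 1773 genes were higher and 658 lower. At a 2-fold threshold 1589 were higher and 582 lower, and 1236 and 387 were called. No paired analysis was possible because each group had 1 library, and for the same reason no library could be left out. The planned edgeR fits with an assumed dispersion were not run, since the placeholder of 0.01 kept the values from being accepted as counts. In their place, and chosen after seeing the data, an assumed variation between samples of 20% left 3 of the 10 genes called higher, with 176 of all genes higher and 64 lower, and one of 40% left 0 of the 10, with 15 and 10 of all genes. Before adjustment, the 95% interval lay above 0 for 8 of the 10 genes at 20% and for 4 at 40%, Gpt2, Oat, Sds and Prodh. The true variation between mice is unknown. Depth was not the limit for the 10 genes, which had at least 594 reads.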

Other observations

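Plasma membrane amino acid transporters, which bring the substrates of these enzymes into hepatocytes, included 6 of 13 that were at least 1.5-fold higher, and none lower, in diabetic mouse liver, with a median log2 ratio of 0.50. After TMM scaling 4 were higher and 1 lower, and after median-ratio scaling 3 and 2. Of all listed genes 34.4% were higher and 15.3% lower as deposited, and 23.9% and 23.8% after TMM scaling. With the FDR under 0.001 in addition 3 were called higher, beside 22.9% of all listed genes. Slc38a3 and Slc38a4, transporters of glutamine and of alanine, were the most abundant, at 326 and 166 TPM in normal and 460.1 and 211 TPM in diabetic liver, both within 1.5-fold. Slc6a13, a taurine and GABA carrier, was 1.54-fold higher at 70.3 and 108 TPM, but within 1.5-fold after TMM scaling, at a log2 ratio of 0.37.

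Enzymes of amino acid breakdown are unevenly placed along the liver lobule, with Sds and Hal known from periportal and Oat from pericentral hepatocytes. Where 34.4% of all listed genes were higher and 15.3% lower, 6 of 11 other periportal genes in the table were at least 1.5-fold higher and 2 lower, with a median log2 ratio of 0.79, and of pericentral genes 6 of 12 were higher and 1 lower, with a median of 0.46. After TMM scaling these counts were 5 and 2 for periportal and 4 and 2 for pericentral genes. That scaling placed 23.9% of all listed genes higher and 23.8% lower. Of the 3 most abundant periportal genes, Pck1 and Gls2 were higher, with log2 ratios of 1.62 and 1.14. Cyp2f2, a cytochrome P450 and the other of these, had 585 TPM in normal and 472 TPM in diabetic liver. Its log2 ratio of -0.31 passed 1.5-fold lower under median-ratio scaling, at -0.62. Cyp2e1, a pericentral cytochrome P450, had a log2 ratio of 0.25 that was -0.01 under TMM scaling. Aldh1a1, a pericentral retinal dehydrogenase, rose 6.65-fold from 233 to 1550 TPM. The part of zonation in the values of the 10 genes was not tested.

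Of 17 liver genes in the table known to respond to glucagon, glucocorticoids or insulin, 7 were at least 1.5-fold higher and 1 was lower, with a median log2 ratio of 0.42, where 34.4% of all listed genes and 41.9% of the abundant genes were higher. After each of the 4 other scalings 4 were higher and 1 lower, and by TMM 23.9% of all listed genes were higher and 23.8% lower. Tdo2, the tryptophan dioxygenase, was at 503 and 821 TPM, a log2 ratio of 0.71 (95% interval, 0.66 to 0.76) that was 0.45, within 1.5-fold, under TMM scaling. The lower gene was Igfbp1, a secreted binding protein of insulin-like growth factors, at 127 and 45.8 TPM (log2 ratio -1.47, 95% interval -1.61 to -1.33), which was chosen after its values were seen. G6pc, which releases glucose, was chosen in the same way and was at 46.7 and 45.4 TPM, a log2 ratio of -0.04 (95% interval, -0.22 to 0.13). Beside Tdo2, the 1.5-fold higher genes were Pck1, Fkbp5, Per1, Klf15, Creb3l3 and Cebpb, at log2 ratios of 1.62, 1.97, 1.36, 1.03, 0.76 and 0.65. All of these except Pck1 were named after their values were seen. Fkbp5 and Per1 had only 34 and 30 reads in the normal library. Under TMM scaling Creb3l3 and Cebpb lay within 1.5-fold, at 0.51 and 0.40.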
